A study of Homo sapiens with 6 samples.

Results

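Proprotein convertases are proteases of the secretory pathway that cut inactive protein precursors into their working forms. The 8 genes described here, PCSK1, PCSK2, PCSK4, PCSK5, PCSK6, PCSK7, FURIN and MBTPS1, were picked by symbol from the 62700 genes of the deposited table and looked up in all 6 libraries. They were listed with earlier results of these data known, among them the difference of PCSK5 between the groups, so differences between the groups are given here as a description. The cells carry the label MKN-45, a cell line established from a human gastric adenocarcinoma, and its poly(A) RNA was sequenced. In 3 cultures labelled NNMT knockdown, an RNA against NNMT, the gene of nicotinamide N-methyltransferase, was transfected, and 3 cultures were controls, all harvested 48 h after transfection per the labels. The labels name the transfected RNA as siRNA in one field and shRNA in others, and they call the controls untouched in one field and negative-control shRNA in others. On how libraries were made they also differ, naming NEBNext in one field and a stranded protocol from Illumina in another. The labels give no further genetic change in either group.

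Most convertases of this family cut after basic residues, while the site-1 protease, encoded by MBTPS1, cuts at sites of another kind. FURIN, PCSK5, PCSK6 and PCSK7 encode enzymes of the constitutive secretory pathway, which many cell types use to mature growth factors, receptors, adhesion molecules and metalloproteases. PCSK1 and PCSK2 encode the prohormone convertases of the regulated pathway, found in endocrine and neuronal cells, where they release peptide hormones. PCSK4 is known for its role in male germ cells. The site-1 protease works in the Golgi, where it releases membrane-bound transcription factors such as the SREBP proteins and ATF6.

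The libraries labelled NNMT knockdown held 40558680 to 45405621 reads on genes, and the control libraries held 41591436 to 56067484. NNMT, the check of the label, had 2, 8 and 14 reads in replicates 1, 2 and 3 labelled NNMT knockdown, against 0, 8 and 12 reads in control replicates 1, 2 and 3, so a lowering of NNMT was not detectable at this depth. The epithelial markers KRT8, KRT18, KRT19, EPCAM, CDH1 and CLDN4 were above 10 CPM (reads scaled to a common library total) in every library. Of 10 gastric and intestinal markers, 6 stayed below 1 CPM in all libraries, and CDX2 and GKN1 among them had 0 reads. The rest were MUC6 at 25.7 to 84.1 CPM, MUC5AC at 3.67 to 42.5, TFF1 at 1.63 to 8.36 and TFF2 at 0.553 to 3.50. Markers of other cell types were read too. Of 6 fibroblast markers, COL1A1 was at 241 to 510 CPM and COL3A1 at 70.2 to 103, while 2 stayed below 1 CPM. Of 4 endothelial markers, KDR was at 107 to 243 CPM and PECAM1 at 17.7 to 26.1, while VWF and CDH5 stayed below 1 CPM. The libraries are of whole cultures, so fewer cells with a transcript and less of it per cell cannot be told apart. The chi-square per gene was at least 11.97 between any 2 libraries, so none differed from another by as little as the sampling noise. The lowest value was across groups, between replicate 3 labelled NNMT knockdown and control replicate 3. Within its own group, this replicate labelled NNMT knockdown had 23.8 with replicate 1 and 36.0 with replicate 2.

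The 8 genes ranged from well detected to not detected. Setting genes side by side needs a level per length, given here as CPM per kilobase of the gene's merged exons. On that scale MBTPS1 was highest at 16.3 ± 0.876 CPM per kilobase (SD, n = 6 libraries), followed by FURIN at 7.57 ± 0.593, PCSK7 at 4.83 ± 0.474 and PCSK4 at 3.13 ± 0.168. PCSK5, at 0.0752 ± 0.0513 CPM per kilobase, and PCSK6, at 0.0447 ± 0.00380, lay far below these, while PCSK1 averaged 0.0124 and PCSK2 had no read. The order of PCSK5 and PCSK6 differed between the groups: PCSK5 averaged 0.0324 and PCSK6 0.0453 CPM per kilobase in libraries labelled NNMT knockdown, against 0.118 for PCSK5 and 0.0441 for PCSK6 in control. The ranges over the 6 libraries did not overlap between MBTPS1 and FURIN, FURIN and PCSK7, PCSK7 and PCSK4, or PCSK4 and PCSK5. Those of PCSK5 and PCSK6 overlapped, as did those of PCSK1 and PCSK2. The step from PCSK4 to PCSK5 was 41.6-fold between means, against the 2.16-fold step from MBTPS1 to FURIN.

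The order among the well expressed members depends on which length is used. The merged exons of PCSK7 span 22206 bases, 4.78 times its principal transcript of 4649 bases in GENCODE 29, and those of PCSK6 span 21740 bases, 4.93 times its principal transcript. For FURIN the ratio was 1.14. Per kilobase of principal transcript, a scale chosen after the values were seen, MBTPS1 led at 38.6 ± 2.08 CPM per kilobase, PCSK7 came second at 23.1 ± 2.26 and FURIN came next at 8.64 ± 0.677 (SD, n = 6 libraries). The reads divided on this scale still came from all merged exons. This scale can thus overstate genes whose merged exons far exceed the principal transcript, as those of PCSK7 and PCSK6 do. The group means of PCSK5 and PCSK6 kept the order they had with merged exons. PCSK5 averaged 0.0751 and PCSK6 0.223 CPM per kilobase of principal transcript in libraries labelled NNMT knockdown, against 0.274 for PCSK5 and 0.218 for PCSK6 in control. MBTPS1 took 48.6% to 53.5% of the summed convertase level per library with merged exons and 47.8% to 55.1% with principal transcripts. It thus kept about the same share on both scales, while the share of PCSK7 was 12.6% to 17.6% with the first and 26.2% to 34.8% with the second.

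**Figure D1:**
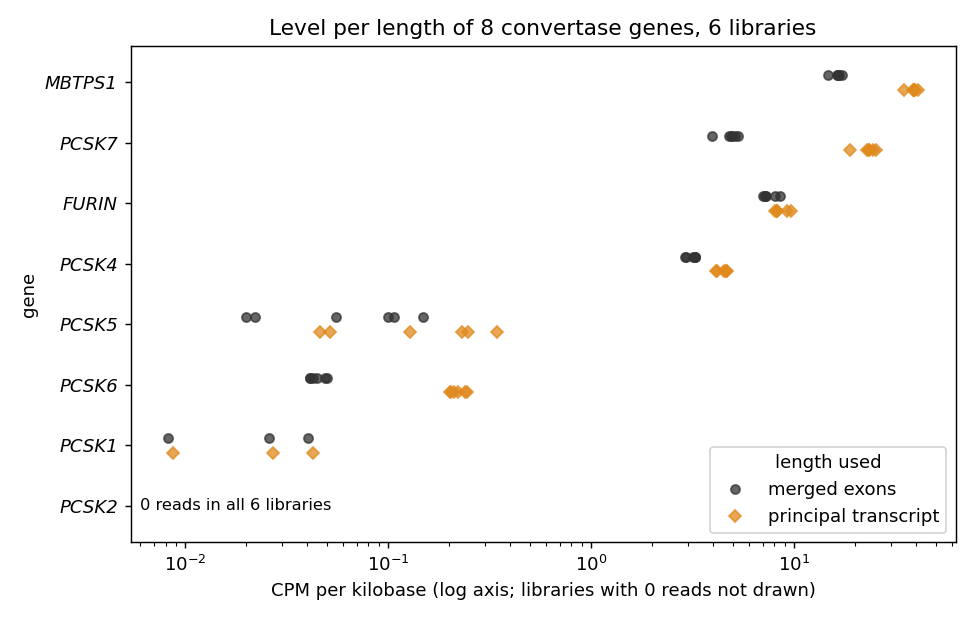
Levels of the 8 convertase genes in CPM per kilobase on a log axis, with 1 point per library with reads (6 libraries), dividing by merged exon length (dark circles) or by principal transcript length (orange diamonds). MBTPS1 is highest on both scales, PCSK7 and FURIN change places, and PCSK5, PCSK6 and PCSK1 lie far below the other detected genes.

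The region before a start listed in RefSeq is shown for 3 members that span this range: MBTPS1, the highest, PCSK5, whose level differed most between the groups, and PCSK1, which was close to 0. The sequences are the 250 bases before the start in RefSeq (GRCh38.p14), read 5′ to 3′ on the strand of the gene, and the table held 13 such windows for the 8 members. For MBTPS1 the window is chr16:84116943-84117192 on the minus strand, and for PCSK5 it is chr9:75890423-75890672 on the plus strand. For PCSK1 it is chr5:96433249-96433498 on the minus strand, the first of its 2 starts. The counted genes follow GENCODE 44, where starts can differ. The PCSK1 window lies wholly inside the gene as placed there, and the end of the PCSK5 window lies inside PCSK5. Capitals mark 3 motifs searched on both strands: the cyclic AMP response element TGACGTCA, which reads the same on both strands, the GC box GGGCGG, and TATAAA.
MBTPS1: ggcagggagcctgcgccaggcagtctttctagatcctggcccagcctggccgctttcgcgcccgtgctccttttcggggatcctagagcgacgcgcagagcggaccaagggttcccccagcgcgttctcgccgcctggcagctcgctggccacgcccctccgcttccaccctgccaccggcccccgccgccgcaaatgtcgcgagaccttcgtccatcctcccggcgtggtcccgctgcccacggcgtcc
PCSK5: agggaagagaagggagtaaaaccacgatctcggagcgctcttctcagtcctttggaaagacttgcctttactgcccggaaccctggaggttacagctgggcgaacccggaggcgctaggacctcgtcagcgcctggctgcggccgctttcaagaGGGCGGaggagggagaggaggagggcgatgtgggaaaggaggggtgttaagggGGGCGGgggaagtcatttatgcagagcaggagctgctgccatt
PCSK1: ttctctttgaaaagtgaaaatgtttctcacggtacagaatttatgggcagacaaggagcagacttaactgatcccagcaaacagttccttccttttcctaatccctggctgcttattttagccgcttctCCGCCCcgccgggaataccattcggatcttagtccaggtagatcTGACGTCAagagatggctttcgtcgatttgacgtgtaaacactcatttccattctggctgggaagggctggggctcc
None of the 3 motifs was in the MBTPS1 window, which had 71.6% G and C and 29 CG dinucleotides. The PCSK5 window held 2 GC boxes, with 60.4% G and C. The PCSK1 window held 1 GC box, on the other strand, and 1 TGACGTCA, with 48% G and C. The window of the other PCSK1 start, not shown, held 1 GC box and 1 TATAAA, with 60.4% G and C. Of 35116 such windows in the table, 42.6% held a GC box, 10.7% TATAAA and 1.65% TGACGTCA, and the median content of G and C was 58%. Among the 13 windows of the 8 members, TGACGTCA was found only in the PCSK1 window shown here. Factor binding was not measured in these cells.

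MBTPS1 (ENSG00000140943.18), the gene of the site-1 protease, lies on chromosome 16 from 84053761 to 84116942 in hg38. It had 151, 169 and 170 CPM in replicates 1, 2 and 3 labelled NNMT knockdown, against 171, 167 and 177 CPM in control replicates 1, 2 and 3. Replicate 1 labelled NNMT knockdown was the lowest library and the groups overlapped. The fitted log2 fold change, labelled NNMT knockdown over control, was -0.07 (SE 0.0799), and the 95% bounds of the fold were 0.841 and 1.07.

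FURIN (ENSG00000140564.13), the gene of the convertase best known for work in the trans-Golgi network, lies on chromosome 15 from 90868588 to 90883564. FURIN had 35.8, 35.9 and 42.2 CPM in replicates 1, 2 and 3 labelled NNMT knockdown, against 35.1, 35.9 and 40.2 CPM in control replicates 1, 2 and 3. Replicate 3 was the highest of its group in both, and the groups overlapped. The log2 fold change was 0.04 (SE 0.0991), the 95% bounds of the fold were 0.883 and 1.196, and the sign turned to -0.04 without replicate 3 labelled NNMT knockdown.

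PCSK7 (ENSG00000160613.15, chromosome 11 from 117204337 to 117232525) encodes a convertase that cycles between the trans-Golgi network and the cell surface. It had 118, 109 and 114 CPM in replicates 1, 2 and 3 labelled NNMT knockdown, against 87.3, 107 and 109 CPM in control replicates 1, 2 and 3. Control replicate 1 stood well below the other libraries. The groups did not overlap, but by a narrow gap, since the lowest value labelled NNMT knockdown was 109.4 CPM and the highest control value 108.9 CPM, and they did overlap with upper-quartile scaling. The log2 fold change of 0.18 (SE 0.0950) was 0.09 without control replicate 1. Of the merged exons of PCSK7, 20.6% overlap exons of genes on the opposite strand, among them the smooth muscle gene TAGLN. Reads there were assigned to neither gene, per the count command in the file header.

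PCSK4 (ENSG00000115257.15, chromosome 19 from 1481428 to 1490752), the convertase gene of male germ cells, was read in every library. It had 10.97, 12.05 and 11.2 CPM in replicates 1, 2 and 3 labelled NNMT knockdown, against 12.3, 12.4 and 12.3 CPM in control replicates 1, 2 and 3. The controls lay close together and all 3 libraries labelled NNMT knockdown lay below them. The difference was small, with a log2 fold change of -0.11 (SE 0.119) and 95% bounds of the fold of 0.771 and 1.11.

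PCSK5 (ENSG00000099139.14) lies on chromosome 9 from 75890644 to 76362975, and its product exists in a soluble and a membrane-bound form and is known in mice as the enzyme that activates the ligand GDF11. It had 12, 12 and 32 reads in replicates 1, 2 and 3 labelled NNMT knockdown, against 82, 64 and 80 reads in control replicates 1, 2 and 3. In CPM these are 0.296, 0.264 and 0.736 in the libraries labelled NNMT knockdown, against 1.97, 1.33 and 1.43 in the controls. All 3 libraries labelled NNMT knockdown lay below all controls, with replicate 3 the nearest to them, and the exact 95% Poisson interval of that library, 0.504 to 1.04 CPM, overlapped that of control replicate 2, 1.02 to 1.70 CPM. These intervals cover counting error only and are too narrow, because mates of a pair were counted singly. The group means were 0.432 ± 0.264 CPM in libraries labelled NNMT knockdown and 1.58 ± 0.347 CPM in control (SD, n = 3 each).

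The fitted log2 fold change of PCSK5 was -1.85 (SE 0.427), or a fold of 0.276 with 95% bounds of 0.144 and 0.532. Leaving out single libraries gave values from -2.48, without replicate 3 labelled NNMT knockdown, to -1.59, without replicate 2 labelled NNMT knockdown. A log2 fold change below -1.5 was found for 42 of 20250 tested genes, or 0.207%. PCSK5 also varied most among the tested members, with a coefficient of variation over the 6 libraries of 68.2%, against 5.36% to 9.81% for the other 5 and a median of 29.8% over the 3799 tested genes at 0.5 to 2 CPM. Of 4 leukocyte markers, CD3E had 0 reads and 3 were below 1 CPM in all libraries. Their summed level was 0.330 to 0.641 CPM in libraries labelled NNMT knockdown and 0.696 to 1.24 CPM in control, with the monocyte gene CD14 at 0.198 to 0.345 CPM in libraries labelled NNMT knockdown and 0.624 to 1.12 CPM in control, and its part in the difference of PCSK5 was not tested.

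PCSK6 (ENSG00000140479.18, chromosome 15 from 101289784 to 101525202) encodes a secreted convertase that binds the extracellular matrix. Its level was steady, at 1.08, 0.969 and 0.897 CPM in replicates 1, 2 and 3 labelled NNMT knockdown, against 1.06, 0.892 and 0.927 CPM in control replicates 1, 2 and 3. The groups overlapped. The log2 fold change was 0.04 (SE 0.298), and the 95% bounds of the fold were wide, at 0.652 and 1.62. It was -0.05 without replicate 1 labelled NNMT knockdown and -0.0091 without control replicate 2. Other genes share 14.4% of its merged exon bases.

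PCSK1 and PCSK2, the prohormone convertase genes, did not pass the filter on low counts and have no fitted fold change. PCSK1 (ENSG00000175426.11, chromosome 5 from 96390333 to 96434143) had 0, 2 and 6 reads in replicates 1, 2 and 3 labelled NNMT knockdown and 9, 0 and 0 reads in control replicates 1, 2 and 3. Of its 17 reads, 9 thus came from 1 control library, and no group stood apart. PCSK2 (ENSG00000125851.10, chromosome 20 from 17226107 to 17484578) had 0 reads in all 6 libraries. A bound of 3 reads would be 0.0661 to 0.0740 CPM per library labelled NNMT knockdown and 0.0535 to 0.0721 CPM per control library. This bound is too low, because mates of a pair were counted singly.

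**Figure D2:**
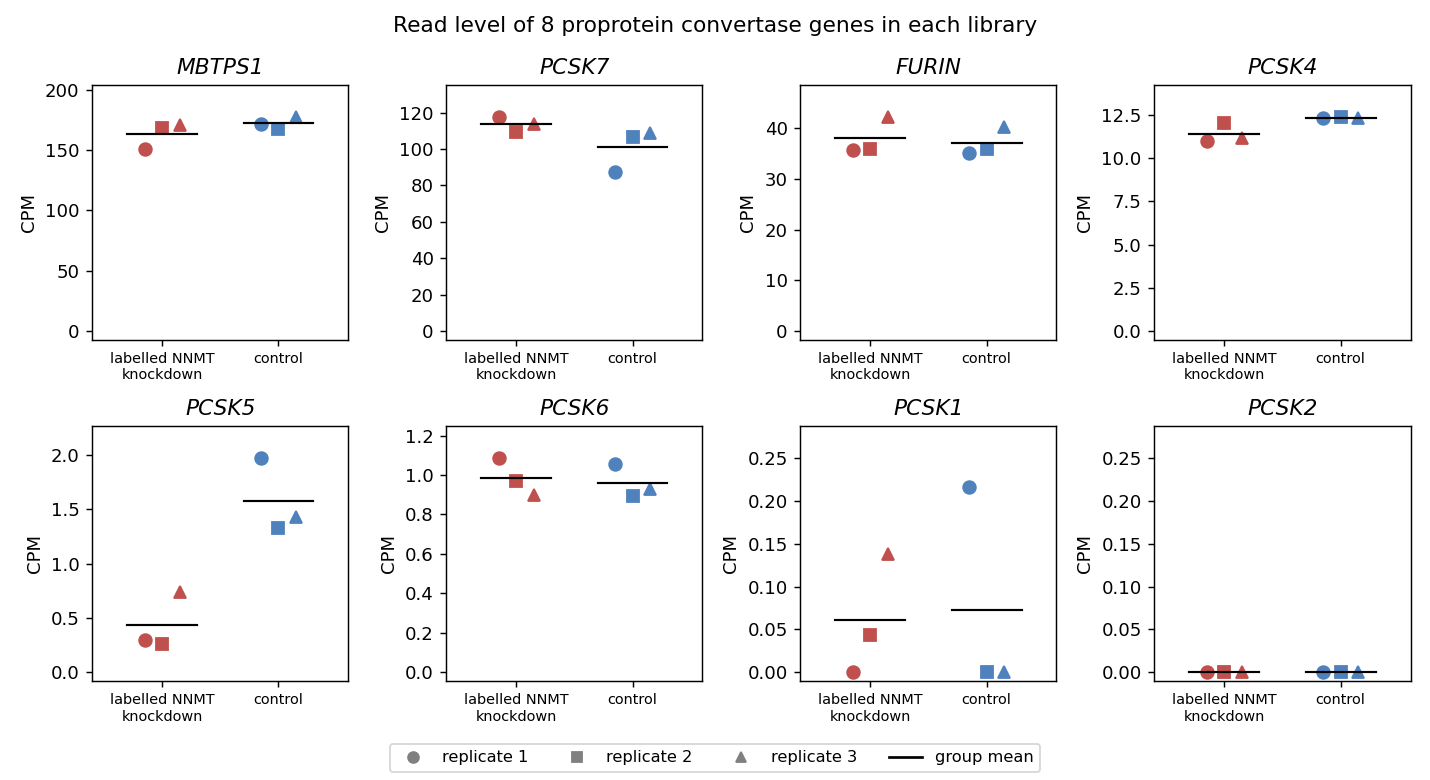
CPM of each of the 8 convertase genes in the 3 libraries labelled NNMT knockdown (red, left) and the 3 control libraries (blue, right), with marker shapes for replicate numbers and lines for group means. PCSK5 lies at 0.264 to 0.736 CPM in libraries labelled NNMT knockdown and at 1.33 to 1.97 CPM in control, while MBTPS1, FURIN and PCSK6 overlap between the groups.

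Of the 8 members, 6 passed the filter on low counts and were tested. With Benjamini-Hochberg adjustment over all genes, edgeR's quasi-likelihood fit passed 0 of the 6 at 0.05, and 0% of the 20250 genes tested. At an unadjusted p under 0.05 there was 1 member, PCSK5, against 4.03% of all tested genes. The groups did not overlap for 3 of the 6, PCSK4 and PCSK5 below control and PCSK7 above it, where 9.17% of all tested genes did not overlap, 4.88% below and 4.29% above control. The members were chosen with this comparison known, so nothing is read from these counts. The estimates split evenly, 3 above and 3 below 0, and their median log2 fold change was -0.0173, against 0.00334 over all tested genes. For the 5 members other than PCSK5 the fitted fold was within 1.2 and its 95% interval within 2 in either direction. PCSK5 passed in the fit without a filter on low counts (adjusted p = 0.00474, edgeR), which called 72 of 37861 genes, or 0.19%. It did not pass in DESeq2, with an adjusted p of 0.137, where 0.0395% of genes were called. limma-voom called 0 genes.

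**Figure D3:**
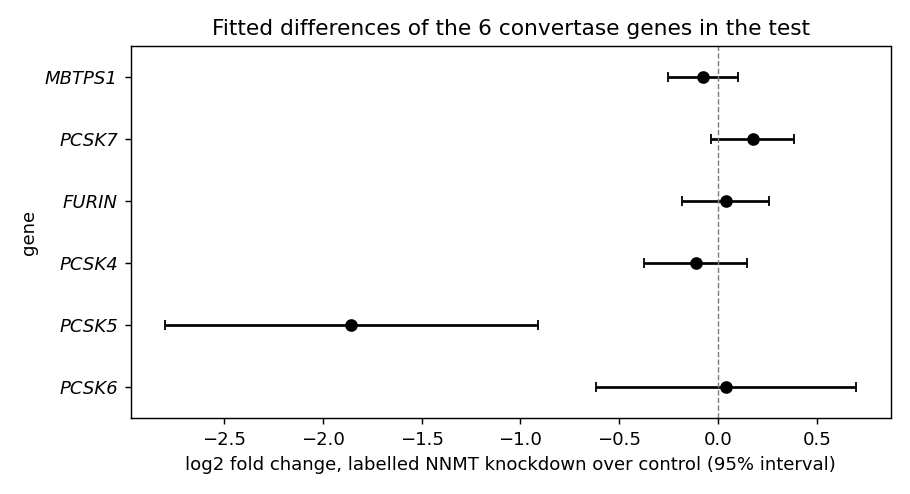
Fitted log2 fold changes, libraries labelled NNMT knockdown over control, with 95% intervals for the 6 convertase genes that passed the filter on low counts (3 libraries each). PCSK5 lies at -1.85, and the intervals of the other 5 genes include 0.

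The level of PCSK5 was then set beside that of other genes by the root-mean-square difference of log2(CPM + 0.5) over the 6 libraries, each gene centred on its own mean. Of 15172 genes with a mean of at least 1 CPM, the nearest was TCN1, the gene of the vitamin B12 carrier haptocorrin, with a difference of 0.202. Then came the muscarinic receptor gene CHRM3 at 0.240, the mechanosensitive channel gene PIEZO2 at 0.253, the PDGF receptor gene PDGFRA at 0.265 and the pseudogene ADCY10P1 at 0.274. The median over all candidates was 0.662. The genes near PCSK5, and those near FURIN below, were picked over these same 6 libraries, so a shared pattern follows from the choice. All of those near PCSK5 were higher in each control library than in replicates 1 and 2 labelled NNMT knockdown. In replicate 3 labelled NNMT knockdown, CHRM3, PDGFRA and ADCY10P1 were above their own means. CHRM3 had 10.5, 11.6 and 18.2 CPM in replicates 1, 2 and 3 labelled NNMT knockdown, against 24.1, 21.0 and 20.9 CPM in control replicates 1, 2 and 3. For FURIN the nearest were ZFP69B, FAM3C, ZNF496-DT, ZFX and SETD4, at 0.028 to 0.032, all with their highest value in replicate 3 of each group. The median over all candidates was 0.173.

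**Figure D4:**
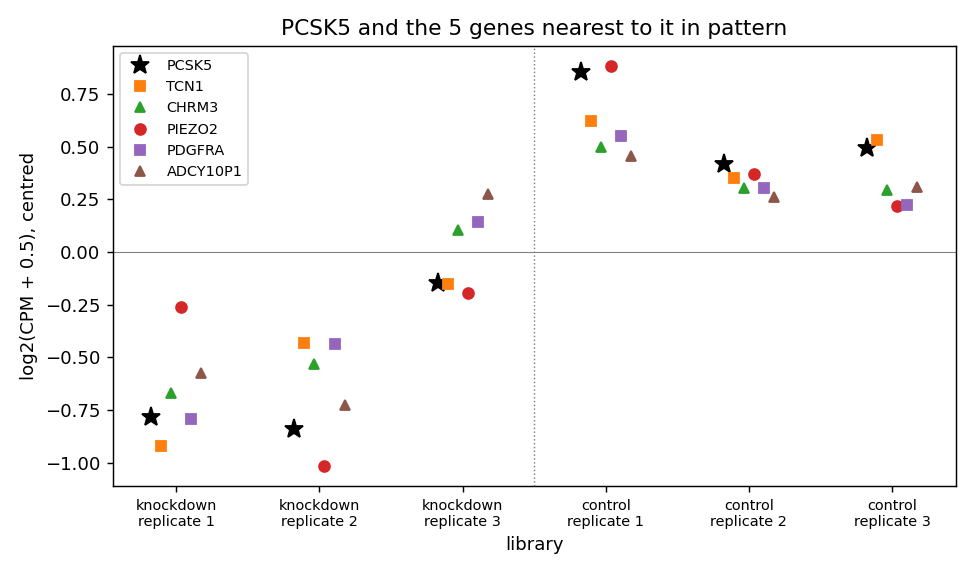
Centred log2(CPM + 0.5) of PCSK5 (black star) and the 5 genes nearest to it in pattern, in the 3 libraries labelled NNMT knockdown (left) and the 3 control libraries (right). All 6 genes are above their mean in the controls and below it in replicates 1 and 2 labelled NNMT knockdown, while replicate 3 is the nearest of them to the controls in each gene.

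Convertases depend on helper proteins, and the genes of those helpers were measured too. Of 6 cofactor and inhibitor genes, all tested, 0 passed in either direction, and the median log2 fold change was -0.0512. SPRING1, which encodes a cofactor of the site-1 protease, averaged 89.7 ± 11.9 CPM in libraries labelled NNMT knockdown and 92.5 ± 3.70 CPM in control (SD, n = 3 each). SERPINB8, which encodes an inhibitor of furin, averaged 55.9 ± 8.93 CPM in libraries labelled NNMT knockdown and 58.4 ± 8.34 CPM in control. The inhibitors of the prohormone convertases were read unequally, as PCSK1N, which encodes the PCSK1 inhibitor proSAAS, was at 48.1 to 67.3 CPM over the 6 libraries, while SCG5, which encodes the PCSK2 chaperone 7B2, was at 0.104 to 0.357 CPM. Both genes overlapped between the groups.

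The genes of furin sorting and of the trimming of convertase products were expressed throughout. Of 6 sorting genes, 0 passed, and 5 of 6 estimates were above 0, at a median log2 fold change of 0.0717. PACS2, a sorting protein gene related to the furin sorting gene PACS1, had 172, 135 and 147 CPM in replicates 1, 2 and 3 labelled NNMT knockdown, against 116, 123 and 133 CPM in control replicates 1, 2 and 3. Its groups did not overlap, with a log2 fold change of 0.30 (SE 0.108). Genes named from this list and those below include the ones with the lowest p, a choice that favours groups without overlap. Over all tested genes, 9.17% did not overlap. PACS1 itself averaged 92.6 ± 5.30 CPM in libraries labelled NNMT knockdown and 85.3 ± 0.159 CPM in control, also without overlap. Of the 3 trimming genes, CPD, CPE and PAM, 0 passed, and PAM, which encodes the peptide-amidating enzyme, averaged 339 ± 37.0 CPM in libraries labelled NNMT knockdown and 327 ± 27.4 CPM in control (SD, n = 3 each).

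Known targets of the furin-type convertases formed 5 lists with 55 genes, of which 50 were tested and 0 passed. Their median log2 fold change was 0.0252, against 0.00334 over all tested genes, with 27 estimates above 0 and 23 below. Of these genes, 32 were above 10 CPM in every library. Among 21 ligand precursor genes, 18 were tested and the median was 0.0658. INHBA, the gene of an activin chain, averaged 34.9 ± 7.69 CPM in libraries labelled NNMT knockdown and 27.2 ± 1.45 CPM in control, without overlap. TGFB3 averaged 51.3 ± 5.45 CPM in libraries labelled NNMT knockdown and 41.3 ± 7.63 CPM in control (SD, n = 3 each), with overlap. TGFB1, which encodes a classical furin substrate, averaged 135 ± 6.40 CPM in libraries labelled NNMT knockdown and 128 ± 6.19 CPM in control. GDF11, the ligand activated by the PCSK5 product in mice, had 49.2, 67.2 and 75.8 CPM in replicates 1, 2 and 3 labelled NNMT knockdown, against 66.3, 104 and 83.8 CPM in control replicates 1, 2 and 3. Its groups overlapped, with a log2 fold change of -0.40 (SE 0.194), and it was picked for its link to PCSK5 after its values were seen.

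Of the genes of receptors and adhesion molecules that convertases cleave, 15 were tested and 0 passed. In every library, 6 of 8 receptor genes and 6 of 7 adhesion genes were above 10 CPM. The 8 receptor genes had a median log2 fold change of -0.0546. The receptor gene LRP1 averaged 1032 ± 211 CPM in libraries labelled NNMT knockdown and 945 ± 145 CPM in control, and MET, the gene of the hepatocyte growth factor receptor, averaged 419 ± 31.4 CPM in libraries labelled NNMT knockdown and 437 ± 11.97 CPM in control. SORT1, which encodes the sorting receptor sortilin, had 13.8, 19.6 and 28.2 CPM in replicates 1, 2 and 3 labelled NNMT knockdown, against 28.2, 35.1 and 32.8 CPM in control replicates 1, 2 and 3. Replicate 3 labelled NNMT knockdown lay only just below the lowest control, at 28.167 against 28.179 CPM, and the groups did not overlap, at a log2 fold change of -0.64 (SE 0.233). INSR, the insulin receptor gene, averaged 34.96 ± 2.04 CPM in libraries labelled NNMT knockdown and 41.2 ± 3.26 CPM in control, also without overlap. The 7 adhesion genes had a median of -0.0322, and the integrin chain gene ITGA3 averaged 1330 ± 106 CPM in libraries labelled NNMT knockdown and 1205 ± 91.7 CPM in control (SD, n = 3 each).

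Metalloprotease genes whose products convertases activate numbered 15, all tested, and 0 passed, with a median log2 fold change of 0.0327. MMP14, the gene of a membrane-bound matrix metalloprotease that furin activates, averaged 725 ± 68.1 CPM in libraries labelled NNMT knockdown and 658 ± 111 CPM in control (SD, n = 3 each). ADAM12 averaged 79.9 ± 8.45 CPM in libraries labelled NNMT knockdown and 63.9 ± 9.79 CPM in control, without overlap. BMP1, the gene of a procollagen-cleaving protease, averaged 70.7 ± 7.43 CPM in libraries labelled NNMT knockdown and 59.5 ± 5.94 CPM in control, and ADAM17, the gene of the TNF-releasing sheddase, averaged 60.3 ± 5.46 CPM in libraries labelled NNMT knockdown and 68.6 ± 3.69 CPM in control. Of the lipase-related genes, 2 were tested and 0 passed. ANGPTL4, which encodes a lipase inhibitor that convertases cleave, had 119, 86.0 and 73.6 CPM in replicates 1, 2 and 3 labelled NNMT knockdown, against 61.9, 52.6 and 61.1 CPM in control replicates 1, 2 and 3. All 3 libraries labelled NNMT knockdown lay above the controls, at a log2 fold change of 0.67 (SE 0.177) that did not pass.

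Prohormone genes were mostly at or near 0, as PCSK1 and PCSK2 were themselves. Of 13 prohormone genes, 6 had 0 reads in all libraries and 11 were below 1 CPM in all of them. The exceptions were GHRL, the ghrelin gene, at 0.577 to 1.06 CPM and NPY, the neuropeptide Y gene, at 2.38 to 20.1 CPM over the 6 libraries. NPY had 5.13, 8.59 and 6.33 CPM in replicates 1, 2 and 3 labelled NNMT knockdown, against 2.38, 20.1 and 10.3 CPM in control replicates 1, 2 and 3. Of 7 neuroendocrine markers, CHGA, CHGB and NEUROD1 had 0 reads, while SYP was at 1.76 to 2.32 CPM and SCG2 at 0.493 to 1.21 CPM over the 6 libraries. The summed level of all 7 was 2.32 to 2.51 CPM in libraries labelled NNMT knockdown and 2.59 to 3.53 CPM in control.

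The pathway of the site-1 protease was expressed in full apart from 1 gene. Of 14 genes, 13 were tested, each of them above 10 CPM in every library, and 0 passed, with a median log2 fold change of -0.00851. CREB3L3, a membrane-bound factor gene known from liver, was below 1 CPM in all libraries. MBTPS2, the gene of the protease that makes the second cut, had 53.1, 72.0 and 61.1 CPM in replicates 1, 2 and 3 labelled NNMT knockdown, against 62.7, 55.8 and 62.2 CPM in control replicates 1, 2 and 3. SREBF2, the gene of the substrate that drives cholesterol synthesis, averaged 180 ± 13.3 CPM in libraries labelled NNMT knockdown and 175 ± 14.9 CPM in control, and SREBF1 averaged 66.3 ± 11.8 CPM in libraries labelled NNMT knockdown and 77.0 ± 8.65 CPM in control (SD, n = 3 each). SCAP, which escorts the SREBP proteins to the protease, averaged 101 ± 12.4 CPM in libraries labelled NNMT knockdown and 113 ± 12.5 CPM in control.

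**Figure D5:**
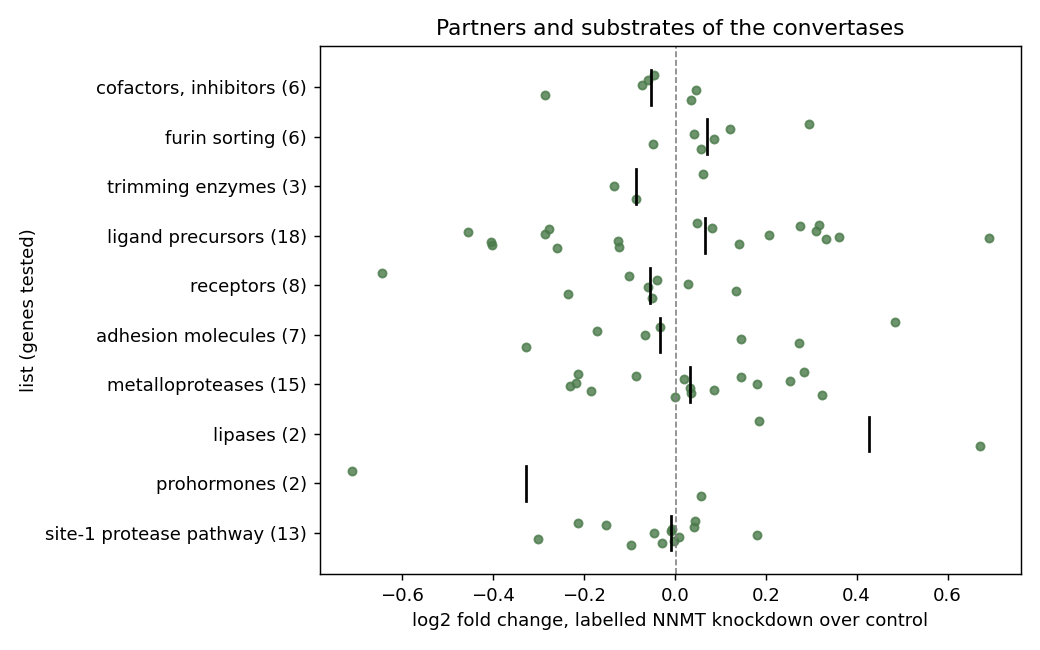
Fitted log2 fold changes, libraries labelled NNMT knockdown over control, of the tested genes in 10 lists of convertase partners and substrates, with the median of each list (black bar) and of all 20250 tested genes (dashed line, 0.00334). Points lie on both sides of 0 in every list but that of 2 lipase-related genes, and 0 genes passed the adjusted threshold.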

How the data were processed

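RNA from 6 cultures was sequenced as paired reads of 150 bases. The authors deposited raw read counts per gene, made with featureCounts 2.0.6 on hg38 with GENCODE 44, per the file headers; no aligner name is given in the sources used. Pairs were not asked to be counted as 1 fragment, no strand option was set, and multi-mapping or multi-overlapping reads were left out, per the file headers. Of counts from 2 to 10, 73.4% to 76.7% were even, so 2 reads often stand for 1 pair. Gene lengths are merged exon lengths deposited in the same table (other values than counts). All 62700 identifiers matched a symbol.

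Genes were filtered with filterByExpr, which kept 20250, scaled with TMM and tested with edgeR 4.0.16 in R 4.3.3 (quasi-likelihood, robust, group as sole term) with Benjamini-Hochberg adjustment over all genes at 0.05. CPM used library totals. Principal transcript lengths came from GENCODE 29 and promoter windows from RefSeq. Samples were grouped by title. The fits were checked on simulated data. DESeq2 1.42.0 and limma-voom (limma 3.58.1) were alternatives.

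Members and lists were chosen with earlier results of these data known. Named genes are the members, the target, per list up to 3 genes with the lowest p and 2 with the highest level, and the 5 nearest in pattern to PCSK5 and FURIN, besides those given as list ranges, GDF11 and MBTPS2, which were chosen after their values were seen. Replicates are independent biological replicates per the labels. Protein sequences were not used here.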

Additional observations from a re-analysis of the deposited data

How the results depend on the processing

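Of 20250 genes, edgeR called 0, while DESeq2 called 8 of 20248 and edgeR without a low-count filter called 72 of 37861, with 1 member, PCSK5, among the 72; the cause was not tested. Leaving out single libraries gave 0 to 1 called genes (1 without control replicate 3) and 0 members called. The other settings (RLE, upper-quartile and no scaling, a stricter filter, limma-voom, non-robust dispersion, and halved counts, added after seeing the data) called 0 genes. The estimate of FURIN ran from -0.0436 to 0.0898 and that of PCSK6 from -0.0508 to 0.125 with single libraries left out; both turned below 0 in part of these. MBTPS1, PCSK4, PCSK5 and PCSK7 kept their sign in all 16 alternatives; PCSK6 did not pass the stricter filter and has no value there. Groups did not overlap for 2 to 4 members over the alternatives. With principal transcript lengths, 4 of 8 members kept their place in the order of levels, since PCSK7 and FURIN, and PCSK5 and PCSK6, changed places; the change of PCSK5 and PCSK6 is in the mean over all 6 libraries and not in the mean of either group. With the replicate number as a block, 0 genes were called and PCSK5 had a log2 fold change of -1.94. Deviations of same-numbered libraries correlated at 0.055, -0.0869 and 0.200, the last for replicate 3. Those of differently numbered libraries correlated at -0.224 to 0.151. So few correlations cannot show whether the numbers pair the samples. Low counts limit PCSK1, PCSK2, PCSK5 and PCSK6.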
